A study of Mus musculus with 36 samples.

Results

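DNA methylation was described at 10 genes that brake or drive the G1 phase of the cell cycle: Cdkn1a, Cdkn1b, Cdkn2a, Cdkn2b, Cdkn2c, Cdkn2d, Ccnd1, Ccnd2, Ccnd3 and Cdk6. The members were the CpG clusters, runs of at least 20 listed cytosines at most 100 bp apart, that overlapped the body of these genes or the 2000 bp on either side. Of 18009 CpG clusters in the tables, 19 met this rule, with 1198 listed positions in 9 of the 10 genes, and all 19 had positions with a value in every library. Both strands of a CG are listed as separate positions. Ccnd2 had no listed position. Cdkn2a and Cdkn2b both had listed positions, 207 in 2 clusters and 61 in 1 cluster.

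The libraries came from B3, an established mouse pre-B cell line used as a model of the pre-BI stage, so the replicates are repeats of a single line. Reduced representation bisulfite sequencing (RRBS) reads cytosine methylation on fragments cut by the restriction enzyme MspI at CCGG. In the Ikaros series the cells carried an MSCV retrovirus with HA-Ikaros-ERt2-IRES-GFP, haemagglutinin-tagged Ikaros fused to a hormone-binding domain, and in the Control series a vector with ERt2 and GFP without Ikaros, so the Control cells also carried the domain that binds the drug. Both series were sampled at 0, 2, 6, 12, 18 and 24 h with 0.5 µM 4-hydroxytamoxifen (4-OHT), which moves the fusion protein to the nucleus. The labels give the drug for every sample, whereas the study's methods describe the 0 h cells as untreated. Each of the 12 conditions had 3 replicates, which made 18 libraries per series and 36 in all.

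Cells enter the cycle when D-type cyclins (Ccnd1, Ccnd2, Ccnd3) bind Cdk4 or Cdk6 and the complexes phosphorylate the retinoblastoma protein. Inhibitors of the Ink4 family, p16 (from Cdkn2a, which also encodes the p53 regulator p19Arf), p15 (Cdkn2b), p18 (Cdkn2c) and p19Ink4d (Cdkn2d), bind Cdk4 and Cdk6, while p21 (Cdkn1a) and p27 (Cdkn1b) act on cyclin-Cdk2 complexes. Ikaros is known to slow the proliferation of pre-B cells, Ccnd3 is needed for their expansion, and the Cdkn2a and Cdkn2b locus is often lost or methylated in cultured and leukaemic lymphoid cells. A promoter rich in CG is usually unmethylated whether or not its gene is used.

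The bases before 3 starts of the Ink4 locus are shown. The starts are the distal Cdkn2a start, whose exon 1β encodes p19Arf, the proximal Cdkn2a start, whose exon 1α encodes p16, and the Cdkn2b start. The sequences are those of RefSeq for GRCm38.p6 on the minus strand, 5′ to 3′, ending at the base before the start. Capitals mark the CG dinucleotides with a listed position.
Cdkn2a distal start, chr4:89294654-89294869: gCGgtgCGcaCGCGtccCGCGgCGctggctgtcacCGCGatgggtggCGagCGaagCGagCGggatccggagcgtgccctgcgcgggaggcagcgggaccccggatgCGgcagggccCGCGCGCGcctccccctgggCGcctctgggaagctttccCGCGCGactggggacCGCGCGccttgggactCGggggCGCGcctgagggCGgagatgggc
Cdkn2a proximal start, chr4:89282193-89282442: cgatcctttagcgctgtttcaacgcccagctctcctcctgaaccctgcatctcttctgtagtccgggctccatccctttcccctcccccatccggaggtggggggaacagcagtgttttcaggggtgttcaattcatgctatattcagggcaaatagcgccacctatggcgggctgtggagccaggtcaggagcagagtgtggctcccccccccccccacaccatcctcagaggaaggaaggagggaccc
Cdkn2b start, chr4:89311040-89311282: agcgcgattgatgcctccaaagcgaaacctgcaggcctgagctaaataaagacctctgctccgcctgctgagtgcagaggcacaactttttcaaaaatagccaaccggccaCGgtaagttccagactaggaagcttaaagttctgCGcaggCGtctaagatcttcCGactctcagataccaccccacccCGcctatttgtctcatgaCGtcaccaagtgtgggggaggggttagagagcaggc
In the distal Cdkn2a sequence 29 of 35 CG dinucleotides were listed, in the Cdkn2b sequence 6 of 11, and in the proximal Cdkn2a sequence none of 7. Over the listed positions of the distal Cdkn2a sequence the methylation level, the percentage of methylated reads as smoothed by the authors, was 93.0% ± 3.5 (SD, n = 18) in the Ikaros series and 88.5% ± 3.27 in the Control series. Over the 2 Cdkn2b positions with a value in every library it was 0.127% ± 0.54 and 0.217% ± 0.52. These neighbouring genes thus stood near opposite ends of the scale just before their starts. The letters GGGAA, the core of the motif that Ikaros binds, were sought on both strands of the 300-base windows from 250 bases before to 50 after each RefSeq start. They occurred 2 times at each Cdkn2a start and 0 times at the Cdkn2b start, and 62.7% of all 32851 such windows held them at least 1 time.

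The 19 clusters lay mostly at starts. A total of 16 lay within 1000 bp of a start annotated in GENCODE M21 and are called promoter clusters here, 3 lay in the flanks and 0 lay only in a gene body, so body levels rest on the exon and intron positions inside promoter clusters. Clusters are numbered along the direction of transcription. The mean level was under 10% in 15 of the 19, from 0.21% to 9.49%, between 10% and 90% in 4, and over 90% in 0. Of all 16734 clusters with complete positions, 48.6% were under 10%, 11.1% between the limits and 40.2% over 90%. Of the 13134 promoter clusters of protein-coding genes, 58.4% were under 10%, against 13 of the 16 member promoters.

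**Figure D1:**
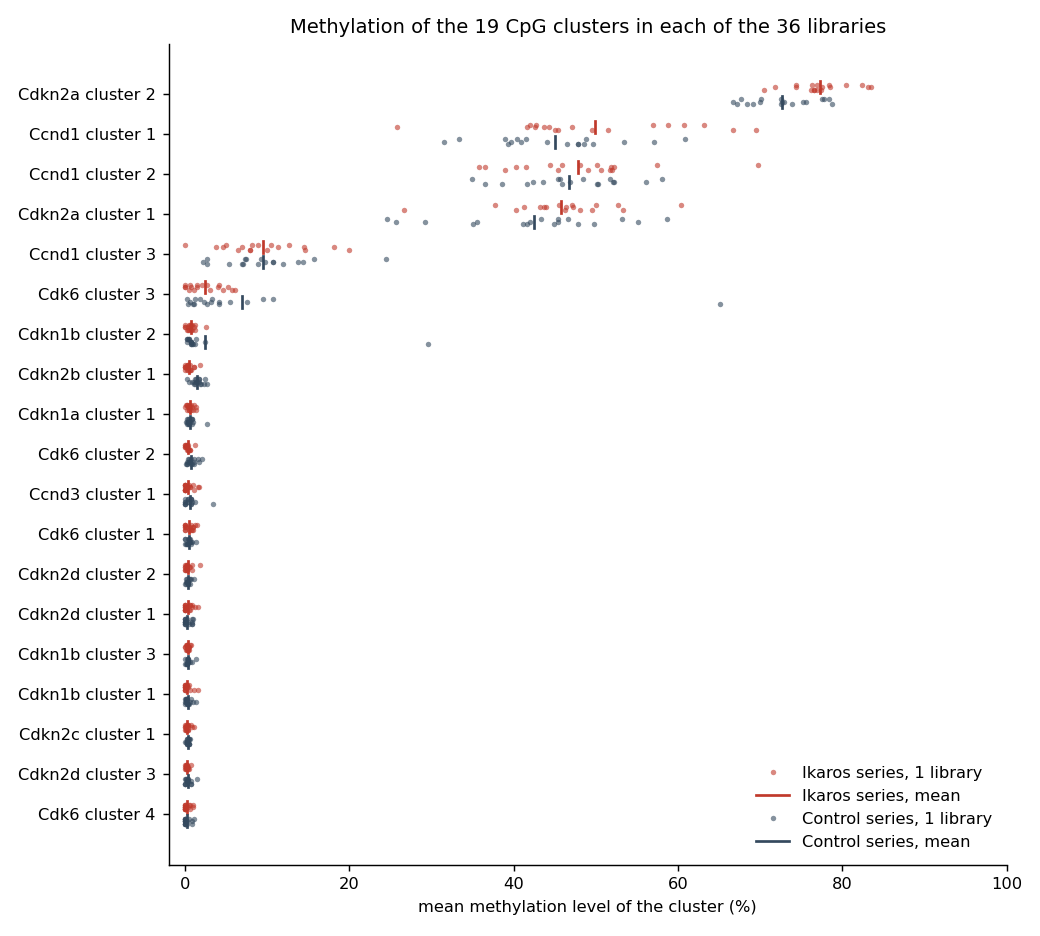
Mean methylation level (%, horizontal axis) of each of the 19 CpG clusters (rows, ordered by their overall mean) in each library (points) with the mean of each series (bars, n = 18). Only clusters of Cdkn2a and Ccnd1 exceed 10.7% in more than 1 library, and a single Control library stands apart at Cdk6 cluster 3 (65.1%) and Cdkn1b cluster 2 (29.6%).

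The exon 1β start of Cdkn2a was the most methylated of these clusters, and its level was higher in the Ikaros series. Cdkn2a cluster 2 (chr4:89294195-89295118, 924 bp, 147 positions, 139 of them complete) spans this start at 89294653. In the Ikaros series the level ran from 70.4% through a median of 76.9% to 83.5%, and in the Control series from 66.7% through 72.6% to 78.7%. The ranges overlapped, and 16 of the 18 Ikaros libraries lay above the Control median. The means were 77.3% ± 3.51 (SD, n = 18) and 72.6% ± 4.0, a difference of 4.69 percentage points. On the M-value, the log2 ratio of methylated to unmethylated fraction, the difference was 0.59 ± 0.11 (SE), with an adjusted p of 0.000682 (limma, Benjamini-Hochberg over all 16734 clusters).

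The Ikaros mean was higher at 134 of the 139 positions, which share smoothed values and are not independent. It was higher at all 6 time points, by 2.57 to 6.82 points. By replicate number the differences were 4.03, 5.93 and 4.12 points. By the batches named in the labels, 3 of 4 showed the same direction, and batch 2, with 1 library of each series, gave 71.8% in Ikaros and 72.7% in Control. Without replicate 3 the adjusted p was 0.0583, and with the shares of missing and end-of-scale values as covariates it was 0.0912, neither past the threshold.

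Methylation along Cdkn2a peaked at the start. In 100 bp bins the level was 95.5% ± 1.45 (Ikaros) and 93.8% ± 2.65 (Control) in the 100 bp upstream of the start. It fell away on both sides, to 54.9% ± 9.89 and 52.6% ± 8.9 in the bin from −400 to −301 bp and to 57.2% ± 12.5 and 53.0% ± 8.84 in the bin from 300 to 399 bp downstream. The bins from −300 to −101 bp held the widest gaps between the series, 7.55 and 7.36 points, while the bin from −100 to −1 bp held 1.7 points. By annotation, exon positions outside the coding part stood at 90.4% ± 4.47 in Ikaros and 85.8% ± 7.28 in Control and coding positions of exon 1β at 84.1% ± 5.79 and 79.7% ± 5.09. The intron positions that follow stood at 55.7% ± 12.5 and 51.5% ± 9.09.

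**Figure D2:**
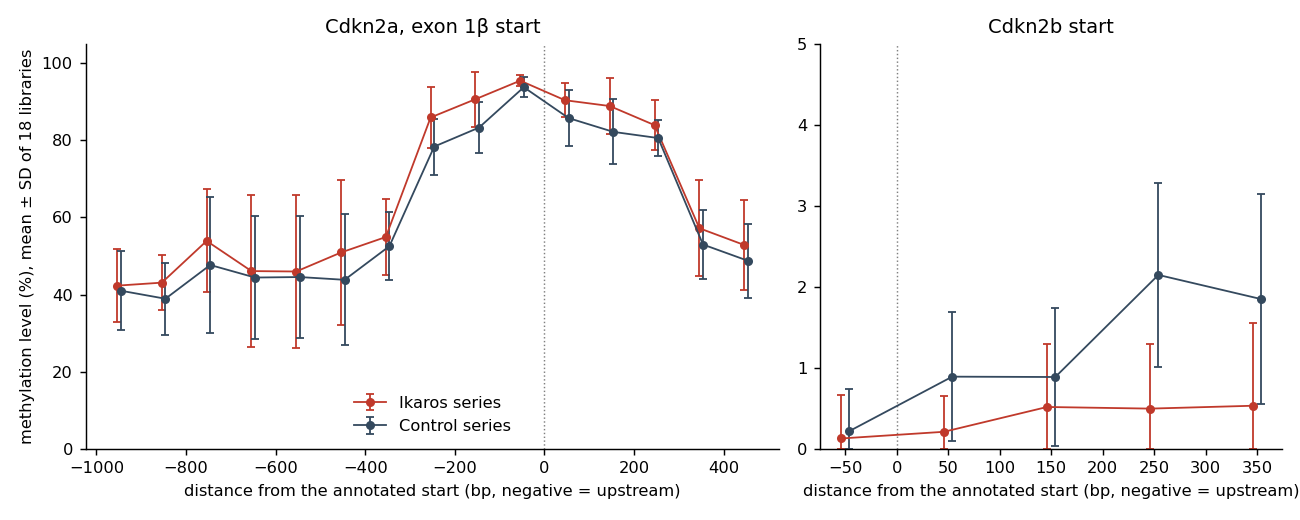
Methylation level (%, vertical axis, separate scales) in 100 bp bins against the distance from the annotated start (bp, negative upstream) of Cdkn2a exon 1β (left) and Cdkn2b (right); points are means and bars the SD over 18 libraries per series, drawn no lower than 0. Cdkn2a rises to 95.5% and 93.8% just before its start, whereas Cdkn2b has no bin with a mean over 2.15%.

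Upstream, Cdkn2a cluster 1 (chr4:89295222-89295625, 60 positions, 569 bp from the exon 1β start) was partly methylated and variable. Its level ran from 26.7% through a median of 46.2% to 60.4% in the Ikaros series and from 24.6% through 44.1% to 58.7% in the Control series. The series overlapped almost completely, with means of 45.7% ± 7.09 and 42.5% ± 9.53 and an adjusted p of 0.9. Across the 36 libraries the 2 Cdkn2a clusters had a Pearson r of 0.3, which is a description of libraries that share the cell line and both series.

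The p16 start of Cdkn2a, at 89282192, had no listed position within 1000 bp, and the nearest lay 12003 bp away. An in silico MspI digest of GRCm38, counting the cytosines of every CG inside fragments of 40 to 220 bp on both strands, put 16 positions there. Levels at Cdkn2a therefore describe the p19Arf start and not the p16 start.

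Cdkn2b, which encodes p15, was almost unmethylated in both series, and its low level was lower still in the Ikaros series. Cdkn2b cluster 1 (chr4:89310660-89311171, 512 bp, 61 positions, 56 complete) covers the start at 89311039 and most of its listed positions, 52, lie in exon 1. The level ran from 0% through a median of 0.33% to 1.76% in the Ikaros series and from 0.229% through 1.42% to 2.68% in the Control series. The ranges overlapped, and 1 of the 18 Ikaros libraries lay above the Control median. The means were 0.463% ± 0.48 (SD, n = 18) and 1.48% ± 0.64, with an M-value difference of −0.49 ± 0.10 (SE) and an adjusted p of 0.0026. The difference is 1.02 percentage points on a scale of 100.

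The Ikaros mean was lower at all 6 time points, by 1.49 points at 2 h and by 0.11 at 18 h at the extremes, and lower with each replicate number. In batch 2, 1.07% was found in both series. Without replicate 1 the adjusted p was 0.175, without replicate 3 it was 0.0733, and with the same covariates it was 0.401. In coding positions of exon 1 the level was 0.506% ± 0.69 in Ikaros and 2.05% ± 1.04 in Control, and in the other exon positions 0.423% ± 0.67 and 0.888% ± 0.74.

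Cdkn2a cluster 2 and Cdkn2b cluster 1 were the 2 of 19 member clusters called for the series difference at an adjusted p under 0.05, 1 higher and 1 lower in the Ikaros series, where 4.84% of all clusters were called, 621 of 810 of them higher in the Ikaros series. With 19 clusters in 9 genes this count is given without a reading of the group. The series were also separately transduced and sorted cell populations, and the design cannot tell that difference apart from the presence of Ikaros in the vector. The mean level over all listed positions was 38.6% ± 0.14 (SD, n = 18) in the Ikaros series and 38.3% ± 0.14 in the Control series. The median M-value difference was 0.02 over the members and 0.03 over all clusters.

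The libraries of the 2 series also differed in how many values sat at the ends of the scale. Over all listed positions, 36.2% ± 7.63 (SD, n = 18) of the values were exactly 0% or 100% in the Ikaros series and 27.9% ± 4.89 in the Control series. At Cdkn2b cluster 1, 57.2% ± 32.9 of the complete positions were listed at 0 in the Ikaros libraries and 12.8% ± 16.1 in the Control libraries. When the share at the ends and the share without a value entered the fit as covariates, 0 of the 19 clusters were called, with M-value differences of 0.52 for Cdkn2a cluster 2 and −0.31 for Cdkn2b cluster 1. The same fit called 335 of all clusters in place of 810. The tables hold no coverage, so read depth behind these shares is unknown.

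**Figure D3:**
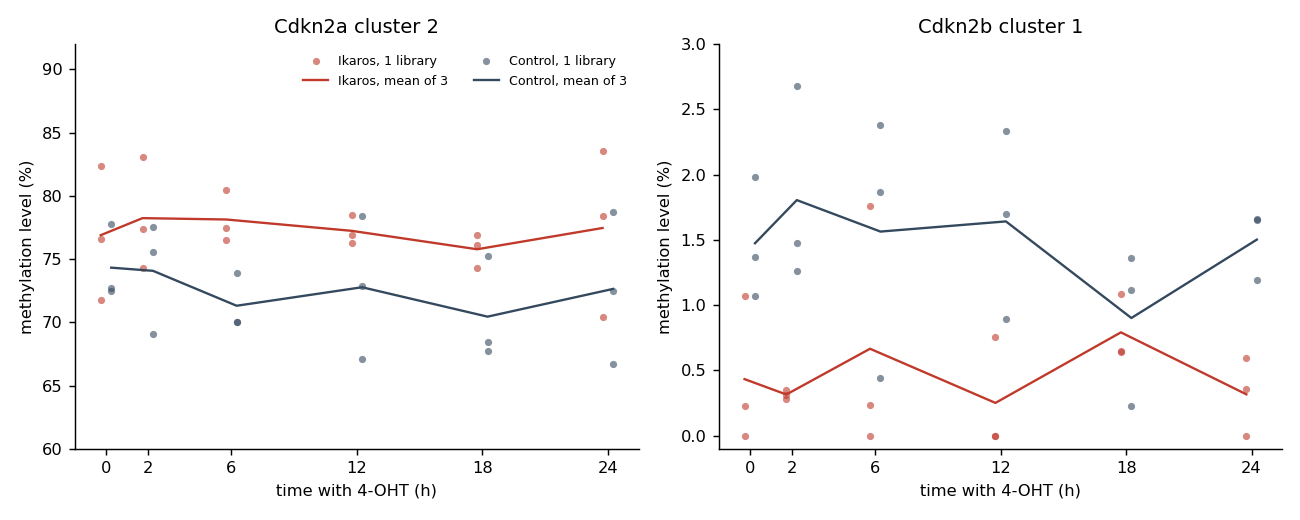
Methylation level (%, vertical axis, separate scales that do not start at the same value) of Cdkn2a cluster 2 and Cdkn2b cluster 1 against time with 4-OHT (h); points are libraries, 3 per condition, slightly offset by series, and lines join the means. The Ikaros mean lies above the Control mean at every time point for Cdkn2a and below it for Cdkn2b, and neither line has a steady slope.

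Over time, no member cluster changed by the tests. For Cdkn2a cluster 2 the Ikaros mean was 76.9% ± 5.28 (SD, n = 3) at 0 h and 77.5% ± 6.59 at 24 h, and the Control mean 74.3% ± 3.02 and 72.6% ± 6.01. For Cdkn2b cluster 1 the Ikaros libraries read 0%, 1.07% and 0.228% at 0 h and 0.593%, 0% and 0.358% at 24 h, and the Control libraries 1.98%, 1.07% and 1.37% and then 1.2%, 1.66% and 1.65%. Within each series the libraries of 0 h and 24 h overlapped. The moderated F test of limma called 0 of 19 member clusters for the Ikaros time course (0% of all clusters were called), 0 for the Control time course (0.012% of all) and 0 for a different course in the 2 series (0% of all). At an unadjusted p under 0.05 these tests passed 0, 1 and 1 member clusters, beside 5.22%, 4.83% and 5.12% of all clusters.

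Single time points were tested at 0 h and 24 h. At 0 h, 0 of 19 were called where 0.215% of all clusters were, and at 24 h 0 of 19 where 0.371% were. At an unadjusted p under 0.05 the counts were 3 and 2, beside 9.55% and 13.6% of all clusters. At Cdkn2b cluster 1 the 3 Ikaros libraries lay below all 3 Control libraries at 2, 12 and 24 h, and at Cdkn2a cluster 2 they lay above them at 6 h. The difference of Cdkn2a cluster 2 at 0 h, 76.9% against 74.3%, had an adjusted p of 0.792, and that at 24 h 0.308. For Cdkn2b cluster 1 the adjusted p-values were 0.683 and 0.356.

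Ccnd1, the cyclin D1 gene, was the other partly methylated gene. Ccnd1 cluster 2 (chr7:144939524-144939885, 40 positions) lies in exon sequence and spans the start of the coding transcript at 144939869. Its level ran from 35.7% through a median of 48.6% to 69.7% in the Ikaros series and from 34.9% through 46.4% to 58.0% in the Control series. The series overlapped, with means of 47.8% ± 8.13 (SD, n = 18) and 46.7% ± 6.38 and an adjusted p of 0.963. Coding positions stood at 51.5% ± 10.5 and 48.2% ± 12.5 and the other exon positions at 45.0% ± 8.97 and 45.5% ± 7.15.

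In the Ikaros series Ccnd1 cluster 2 read 45.3%, 35.7% and 48.1% at 0 h and 51.7%, 52.2% and 69.7% at 24 h. In the Control series it read 41.7%, 52.0% and 45.4% at 0 h and 45.9%, 46.8% and 58.0% at 24 h. The Ikaros libraries of the 2 times did not overlap, whereas the Control libraries did, but the adjusted p of the Ikaros time course was 0.969 and that of a different course 0.967.

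Ccnd1 cluster 1 (chr7:144941272-144941843, 61 positions, 36 complete) lies upstream of the gene, 1347 bp from the outermost start. Its level ran from 25.8% through a median of 46.3% to 69.4% in the Ikaros series and from 31.5% through 45.2% to 60.8% in the Control series. The means were 49.8% ± 10.9 and 45.0% ± 7.66, with an adjusted p of 0.503. At 0 h the Ikaros libraries lay between 47.1% and 69.4% and the Control libraries between 31.5% and 41.5%, without overlap, at an adjusted p of 0.356, and at 18 h they lay the other way, from 42.7% to 45.1% in Ikaros and from 47.8% to 53.4% in Control. Ccnd1 cluster 3 (chr7:144937937-144938386), inside the gene at the start of a retained-intron transcript, was much lower, at 9.5% ± 5.09 and 9.48% ± 5.41, with single libraries from 0% to 24.4%. Methylation at Ccnd1 thus dropped from about the middle of the scale at the start exon to near its bottom inside the gene.

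**Figure D4:**
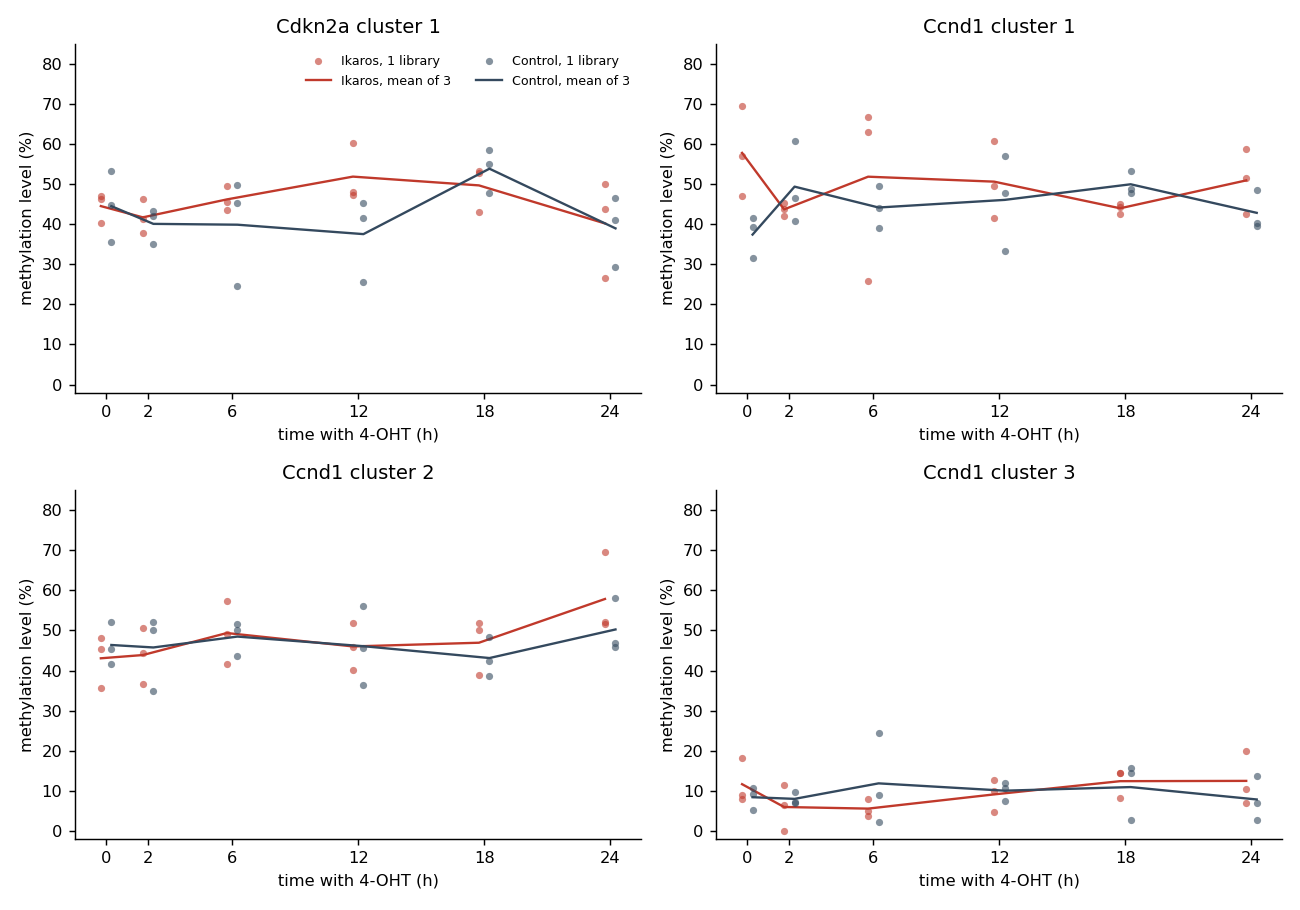
Methylation level (%, vertical axis) against time with 4-OHT (h) of Cdkn2a cluster 1, upstream of the gene, and of Ccnd1 clusters 1, 2 and 3; points are libraries, 3 per condition, slightly offset by series, and lines join the means. The points of the series intermingle at most times, except in Cdkn2a cluster 1 at 12 h and Ccnd1 cluster 1 at 0 h, where all Ikaros libraries lie above the Control libraries, and in Ccnd1 cluster 1 at 18 h, where they all lie below.

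The other D cyclins were covered thinly. Ccnd3, the cyclin needed for pre-B cell expansion, had 1 cluster (chr17:47593706-47594306, 32 positions, 11 complete) at internal starts, with a mean of 0.412% ± 0.57 in Ikaros and 0.569% ± 0.79 in Control. Its outermost starts, near 47505051, had no listed position within 1000 bp. Ccnd2 had 132 positions inside MspI fragments of that size and 3 clusters expected from the digest, but 0 listed positions. The nearest listed position lay 2671 bp from its outermost start. Of 14052 protein-coding genes with an expected cluster, 12.0% likewise had no listed position in the same window.

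Cdk6, the kinase partner of the D cyclins, had 4 promoter clusters on chromosome 5 that were mostly unmethylated. Clusters 1, 2 and 4 had series means between 0.201% and 0.764%. Cdk6 cluster 2, in the intron after the outermost start, had 0.302% ± 0.29 in Ikaros and 0.764% ± 0.56 in Control, with 1 of 18 Ikaros libraries above the Control median and an adjusted p of 0.198. Cdk6 cluster 3 (chr5:3343700-3344020) had 2.43% ± 2.08 in Ikaros and 6.9% ± 14.8 in Control. The Control library of replicate 1 at 0 h read 65.1% there and every other library at most 10.7%, and without it the Control mean was 3.48% ± 3.16 (n = 17). The adjusted p was 0.553 with it and 0.612 without it.

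The same library stood apart at Cdkn1b cluster 2 (chr6:134920886-134921263), in exon sequence downstream of the start of the p27 gene. It read 29.6% where every other library read at most 2.51%, and without it the Control mean went from 2.37% ± 6.82 to 0.769% ± 0.54 (n = 17), beside 0.685% ± 0.60 in Ikaros. That library lacked a value at 11.6% of the listed positions, the highest share of the 36, against a median of 0.342% in the Ikaros series and 0.323% in the Control series. The part of this share in the result was not tested.

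The remaining inhibitors stood near 0 in every library. Cdkn1a, which encodes p21, had 0.593% ± 0.40 in Ikaros and 0.624% ± 0.57 in Control over 92 complete intron positions near its internal starts. Its outermost coding start, at 29090979, had no listed position within 1000 bp, and the nearest lay 3255 bp away. Cdkn2c, which encodes p18, had 0.293% ± 0.30 and 0.306% ± 0.15 over 166 positions, all in exons outside the coding part. Counting also Cdkn2d, which encodes p19Ink4d, the other clusters of Cdkn1b, Ccnd3 and the 3 low clusters of Cdk6, 11 clusters had means under 1% in both series, and no library exceeded 3.38% in any of them. Of these, Cdkn1b cluster 3 and Cdkn2d cluster 3 are flanks downstream of the genes, and Cdkn2d cluster 3 lies at the start of the neighbouring gene Kri1.

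The member cluster whose 12 condition means spanned the widest range was Cdk6 cluster 3, so the clusters most like it were sought on other chromosomes. The 5 with the highest Pearson r over the 36 libraries lay nearest to Spata5, Hspa4l, 1700030J22Rik, Fam3a and Rhog, with r between 0.969 and 0.97. Each was highest in the same Control library. Without that library r was 0.23 for the cluster at Spata5 and −0.01 for that at Rhog, and the other 3 clusters were at 0 in every library left. The likeness is thus that of a single library.

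Other genes of the cycle, a list of 40 cyclins, kinases, retinoblastoma and E2F family members and their regulators, held 53 clusters in 37 genes, of which 51 had complete positions. None of the 51 passed any of the 6 limma tests, and 5 had an unadjusted p under 0.05 for the series difference, beside 14.8% of all clusters. Of the 49 promoter clusters tested, 42 had a mean under 10%. The 7 others were highly methylated in both series. They were the 3 clusters of Cdkn1c (p57, the imprinted Kip inhibitor) at 97.5%, 97.9% and 94.8%, Ccna1 (the germline cyclin A1) at 94.4%, E2f6 at 97.5%, an internal start of Foxm1 (a mitotic transcription factor) at 97.9% over 5 complete positions and an internal start of E2f7 at 86.4%. At their outermost starts Foxm1 stood at 0.645% and 0.78% and E2f7 at 0.667% and 0.327%. No cluster of this list had a mean between 10% and 86.4%, the range that holds the clusters of Cdkn2a and Ccnd1 clusters 1 and 2.

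The labelled cell type was checked at promoters. The B-lineage genes with a promoter cluster, Pax5, Ebf1 and Vpreb1, stood at 0.982%, 0.205% and 0.337%, and Cd79a, Cd79b, Igll1, Rag1 and Blnk had none. Of the genes of other lineages, Gata3 had clusters at 97.8%, 40.7% and 9.16% and Klf1 had 1 at 1.47%, while Cd3e, Cd3g, Cd4, Gata1, Mpo, Csf1r and Alb had none. Levels of methylation at a promoter do not measure expression, which was not analysed here.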

How the data were processed

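RRBS was measured in 36 samples of B3 cells. After trimming, the authors aligned reads to GRCm38 with Bismark 0.10.1 (submitters' processing notes) and smoothed the calls of each CpG cluster over a bandwidth of 80 bp. Levels were deposited by the authors as a fraction, printed here as a percentage. Deposited beside them were M-values on a log2 scale with levels limited to 0.01 to 0.99, so levels under 1% are not told apart on that scale. The tables give no coverage, the depth at a position is unknown, and no counting interval can be given. All sample columns were used. A marker gene on the lists is not reported here.

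Levels and M-values were averaged over the positions of a cluster with a value in all 36 samples (Python 3.11.15, numpy 2.4.6). Clusters were tested with limma 3.58.1 in R 4.3.3: the series difference with time as a factor, single-time contrasts, and moderated F tests within and between series. Calls had an adjusted p under 0.05 (Benjamini-Hochberg over 16734 clusters). The tests were tested on simulated data. The members, lists and the rule for named clusters (over 10% in either series or past a test; the rest by range and count; in the list of cycle genes, calls and promoters over 10%) were chosen with earlier results of these data known. The p-values measure the spread between libraries of 1 line, and the fits took these libraries as independent. The study's methods describe the cells of each series as thawed, expanded and then split into flasks for the induced times. Libraries of the same series and batch can thus share a culture before the split. The replicate and batch blocks were common to both series, so they did not model this.

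Replicate numbers mark batches shared by both series in the labels (number 2 spans batches 2 and 3). Same-numbered samples did not deviate together (mean r −0.0003 over 198 pairs, 0.0002 for other numbers). Alternatives were the level, all positions, replicate number or batch as a block, quality covariates, later times, other moderation, a gap of 50 bp, a window of 500 bp, and each replicate number or library left out. Gene models were those of GENCODE M21 on GRCm38.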

Additional observations from a re-analysis of the deposited data

How the results depend on the processing

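The series difference was called for 2 member clusters with the smoothed level, with all positions, with either block, from the 2 h to 24 h samples alone and with trend and robust moderation. With the quality shares as covariates it was called for 0, and leaving out a replicate number or a library gave 0 to 2. The calls were lost without replicate 1 (Cdkn2b cluster 1, M-value difference −0.39) and without replicate 3 (Cdkn2b cluster 1, −0.46, and Cdkn2a cluster 2, 0.56), which also leaves fewer samples. No single library, left out alone, ended a call. With the replicate block the adjusted p was 0.000699 for Cdkn2a cluster 2 and 0.00342 for Cdkn2b cluster 1, with differences of 0.59 and −0.49. The block moved the count over all clusters from 810 to 820 and changed no other call among the members. Over all clusters the count was 906 with the level and 335 with the covariates, and it fell to 399, 543 and 368 without replicates 1, 2 and 3.

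Differences that were not called changed sign in places. With the covariates the difference of Ccnd1 cluster 1 was −0.0212 in place of 0.38. With replicates or libraries left out, that of Cdkn2a cluster 1 ran from −0.0118 to 0.21 and that of Ccnd1 cluster 2 from −0.12 to 0.22. The time course, different course and single-time tests called 0 member clusters under every alternative run. Those at 0 h and 24 h called 71 and 40 of all clusters with the level against 36 and 62, and 0 to 70 and 4 to 384 with replicates or libraries left out. A gap of 50 bp gave 24 member clusters, 20 of them near a start, and a window of 500 bp 14 near a start. The cause of these shifts was not tested. Depth could not be weighed, since the tables hold no coverage.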
